A study of Mus musculus with 24 samples.

Results

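The amyloid precursor family and the enzymes that cut or degrade its products were followed through the choroid plexus of aged mice. The members are App, Aplp1, Aplp2, Bace1, Adam10, Adam17, Ide, Mme, Ece1 and Itm2b, chosen by name. Every probe set (a group of short probes that together give 1 signal) was taken whose only gene symbol in the array's annotation was one of these names. That gave 32 of 22626 probe sets, for 10 of the 12393 genes that the array names in this way. The mice were C57BL, 78 weeks old, and carried a humanized ApoE3 or ApoE4 gene as a knock-in, so the animals compared differ in which human form they carry and no group has the mouse form alone. Each genotype was kept on normal mouse chow (ND) or on a high-fat diet (HFD), which gave 4 groups of 6 arrays, with replicates 1 to 3 male and 4 to 6 female. Choroid plexus was cut from fresh-frozen tissue by laser capture microdissection, and its RNA was amplified by in vitro transcription and hybridised to Affymetrix arrays. The sources used here do not give how the captured regions were chosen or whether the arrays are of separate animals. The p-values therefore reflect only the spread among these samples, and that spread may be technical.

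The amyloid precursor protein, App, and its relatives Aplp1 and Aplp2 span the membrane once and are cut by the same enzymes. Beta-secretase (Bace1) followed by gamma-secretase releases amyloid beta, whereas the alpha-secretases Adam10 and Adam17 cut within the amyloid beta stretch of App and so prevent its release. Ide, Mme (neprilysin) and Ece1 are proteases that degrade amyloid beta, and Itm2b (BRI2) is a membrane protein that binds App and is mutated in familial British and Danish dementia. The choroid plexus secretes cerebrospinal fluid and forms the barrier between it and the blood, and its epithelium makes App and several carriers of amyloid beta.

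RefSeq promoters, 250 bases before to 50 after a transcript's start in mouse build GRCm38.p6, were found for 9 of the 10 members, with 14 entries in all. Those of the 3 precursor genes are shown because all 5 member calls between genotypes on high-fat diet were of App and Aplp2. Capitals mark the GC box letters GGGCGG or CCGCCC and the CCAAT box letters CCAAT or ATTGG, each searched on both strands. The App promoter lies on the minus strand at chr16:85173658-85173957, the Aplp1 promoter on the minus strand at chr7:30445533-30445832 and the Aplp2 promoter on the minus strand at chr9:31211799-31212098.
App: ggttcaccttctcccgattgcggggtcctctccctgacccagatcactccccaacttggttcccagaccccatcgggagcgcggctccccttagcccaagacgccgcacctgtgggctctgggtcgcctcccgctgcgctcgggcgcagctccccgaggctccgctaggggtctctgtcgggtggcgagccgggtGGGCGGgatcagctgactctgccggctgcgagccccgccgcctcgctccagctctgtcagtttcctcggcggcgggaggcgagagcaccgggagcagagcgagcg
Aplp1: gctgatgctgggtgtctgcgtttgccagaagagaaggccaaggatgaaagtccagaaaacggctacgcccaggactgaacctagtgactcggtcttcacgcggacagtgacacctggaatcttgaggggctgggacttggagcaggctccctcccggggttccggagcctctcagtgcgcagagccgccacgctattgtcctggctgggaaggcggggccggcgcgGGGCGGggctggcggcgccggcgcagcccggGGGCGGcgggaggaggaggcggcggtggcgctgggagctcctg
Aplp2: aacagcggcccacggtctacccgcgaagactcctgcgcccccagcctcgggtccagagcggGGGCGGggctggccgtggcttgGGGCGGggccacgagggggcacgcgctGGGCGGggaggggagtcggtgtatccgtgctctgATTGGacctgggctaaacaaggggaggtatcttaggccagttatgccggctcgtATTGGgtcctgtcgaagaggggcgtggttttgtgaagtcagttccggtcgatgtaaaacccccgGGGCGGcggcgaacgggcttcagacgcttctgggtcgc
The Aplp2 stretch held 4 GC boxes and 2 CCAAT boxes, Aplp1 held 2 GC boxes and App held 1. A GC box was in 12 of the 14 entries and in 35.7% of all 32851 promoters of this length, while the TATA box letters TATAAA were in 0 of the 14 and in 13.6% of all. CCAAT box letters stood in 37.4% of all. The GC content was 71% for App, 68.67% for Aplp1 and 67% for Aplp2, against a median of 52.67% over all. Not all of these starts are the outermost end of the annotated gene. That of App lies 1548 bases inside the gene and that of Adam10 38 bases, while those of Aplp1 and Aplp2 are at its end. Mme and Ece1 have several entries for different starts, some of which overlap. These matches describe the letters only.

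The tissue label was borne out by its markers, since 11 of 11 epithelial marker genes on the array, Ttr among them, were called Present on all 24 arrays. Their mean log2 signal did not pass a test between genotypes, with adjusted exact permutation p of 0.825 for chow and 0.299 for high-fat diet, over 12 tests of array measures. Other array measures did differ. The median signal of an array on chow was 152 ± 8.23 for ApoE4 and 168 ± 9.14 for ApoE3, and 151 ± 5.92 against 173 ± 4.55 with the high-fat diet (adjusted p = 0.026 and 0.00649 by the exact test), at a near-constant trimmed mean. Its part in the results was not tested beyond the fit after quantile normalization. The share of probe sets called Present was 58.2% ± 1.52 (SD, n = 6) in ApoE4 and 54.8% ± 0.574 in ApoE3 on chow, and 59.0% ± 1.15 against 55.4% ± 1.76 on high-fat diet (exact permutation adjusted p = 0.00649 and 0.0104). The hybridization controls averaged 11.29 (log2 signal) for ApoE4 and 11.64 for ApoE3 when on chow (adjusted p = 0.00649 by the exact test). With the high-fat diet it was 11.24 and 11.61 (0.0216 by the exact test). The mean log2 signal of markers of neurons, myelin and astrocytes was 7.94 ± 0.18 in ApoE4 and 8.30 ± 0.071 in ApoE3 on high-fat diet (exact permutation adjusted p = 0.00649). On chow it was 7.89 ± 0.16 and 8.07 ± 0.12 (exact permutation adjusted p = 0.0693).

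Of the 32 member probe sets, 25 met the filter, a Present call on 6 or more of the 24 arrays, and these tested sets stand for 9 of the 10 genes. Detection is a call that the authors' software makes from the probes of 1 set, and signals of different probe sets are not on a common scale, so each is compared only with itself. All 24 arrays called Present both tested sets of Aplp1, both of Itm2b, all 5 of Aplp2 and 2 of App. App set 1438374_x_at was Present on 21 arrays, Bace1 set 1421825_at on 16, Adam17 set 1421859_at on 22 and Ide set 1453988_a_at on 18. The Ide set was Present on 6 of 6 arrays of each ApoE4 group and on 3 of 6 of each ApoE3 group. Its signal did not differ by limma, at 0.03 ± 0.17 on chow and 0.26 ± 0.17 on high-fat diet (adjusted p = 0.941 and 0.249). ApoE4 arrays also had more Present calls over all probe sets. The share of all probe sets with such a split was not computed. Mme, the gene of neprilysin, rested on 1455961_at alone, which was Present on 24 arrays at 78.7 to 152.8, while its other set, 1422975_at, was Present on 0. Ece1, endothelin-converting enzyme 1, had no tested set, since 1434177_at was Present on 0 arrays and 1455741_a_at on 1. The remaining untested sets were App 1438373_at, Present on 1 array, and Adam10 1450104_at, Bace1 1450384_at and Itm2b 1418001_at, Present on 0. Each of these 4 genes also had sets that were Present on every array.

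**Figure D1:**
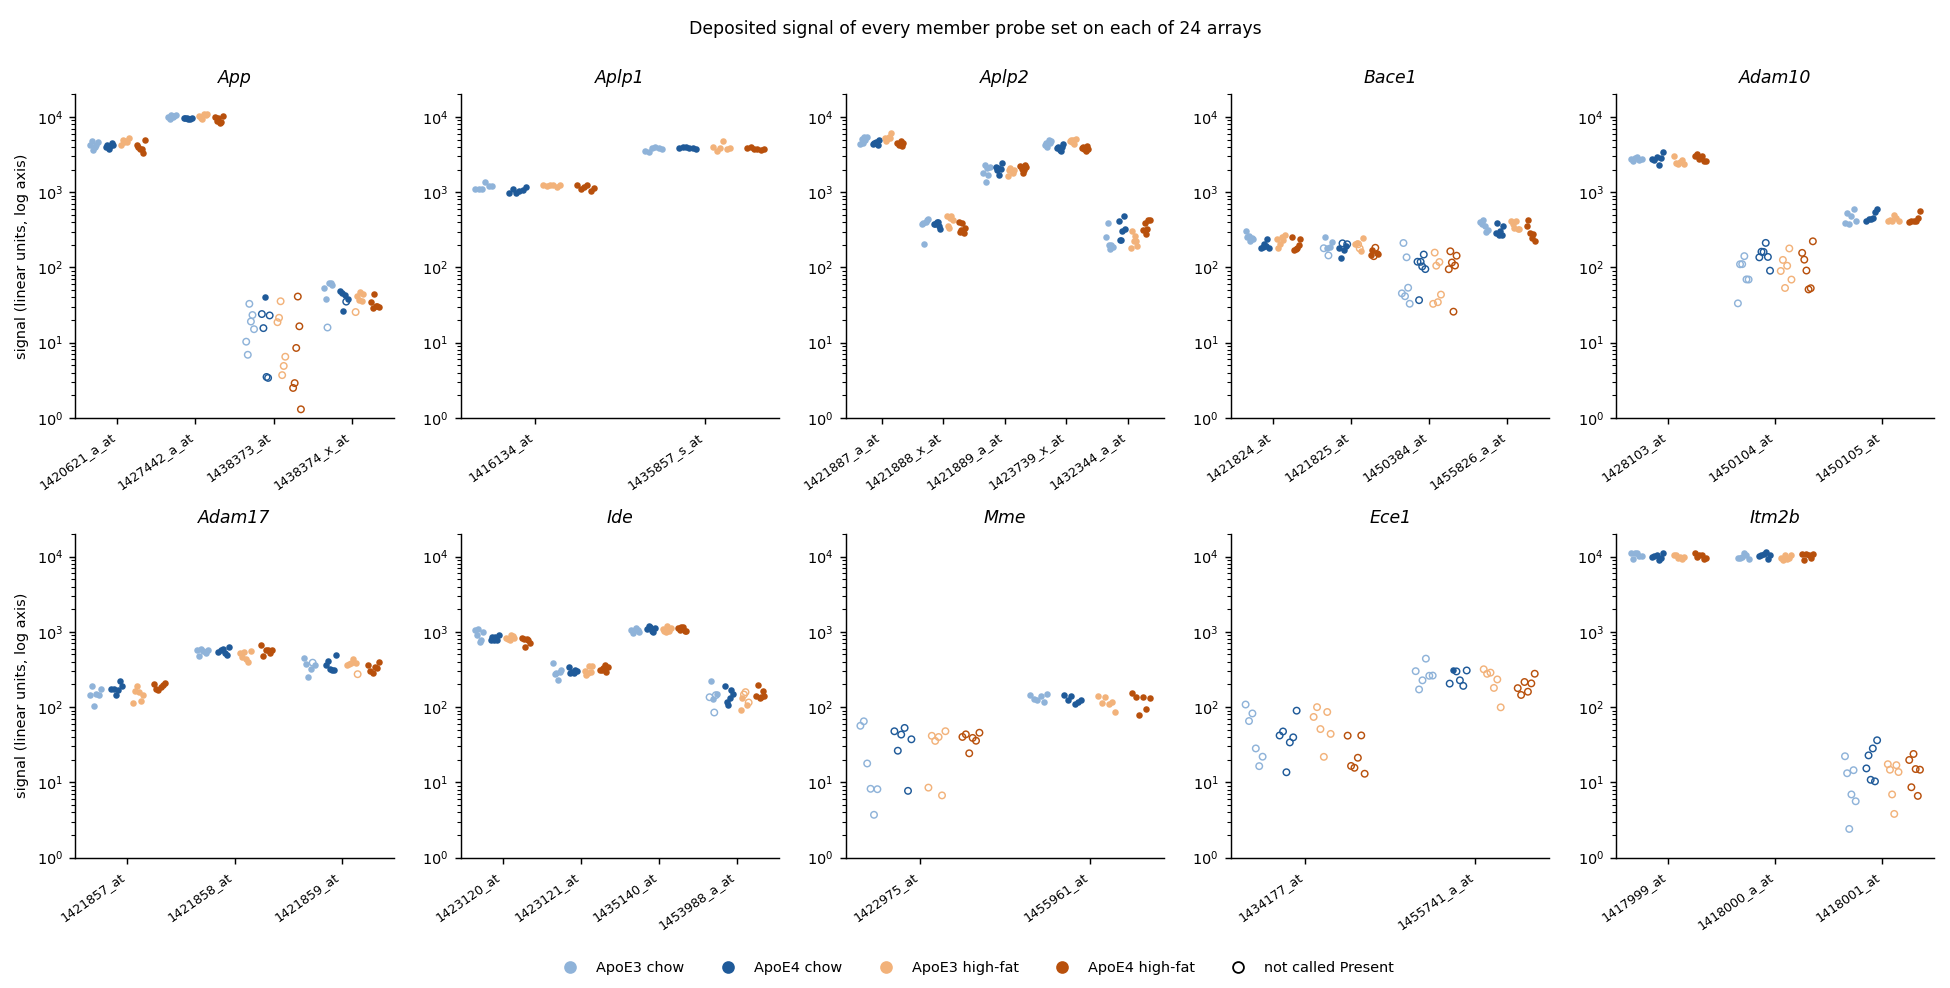
Deposited signal (linear units, log axis) of all 32 member probe sets on each of 24 arrays, 1 panel per gene, with colours for the 4 groups. Open circles are signals not called Present. Both Ece1 sets are open on 24 and 23 of 24 arrays, while both bright Itm2b sets are filled on all 24. Heights of different probe sets are not comparable.

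The first question was whether the amyloid genes differ between ApoE4 and ApoE3. Calls were made for some sets of App, Aplp1, Aplp2, Bace1 and Adam17, with folds of at most 1.52. On chow, 0 of the 25 member probe sets were higher and 2 were lower in ApoE4, which is 8% of them against 10.2% of all 13936 probe sets tested, of which 4.44% were higher and 5.81% lower (limma, Benjamini-Hochberg adjusted p under 0.05). On high-fat diet 1 was higher and 4 were lower, which is 20% against 26.4% of all (10.4% higher and 16% lower). Averaged over both diets 2 were higher and 7 lower, 36% against 37.6% of all (14.7% higher and 22.9% lower). The members' shares thus lay close to or under the background in each of the 3 genotype comparisons. Their median log2 difference was 0.02 on chow, -0.05 on high-fat diet and -0.02 on average, against -0.02, -0.06 and -0.04 over all tested. After quantile normalization the background leaned the other way, with 57.4% of calls higher in place of 43.3% on chow, 55.6% in place of 39.3% on high-fat diet and 54.6% in place of 39.1% on average.

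**Figure D2:**
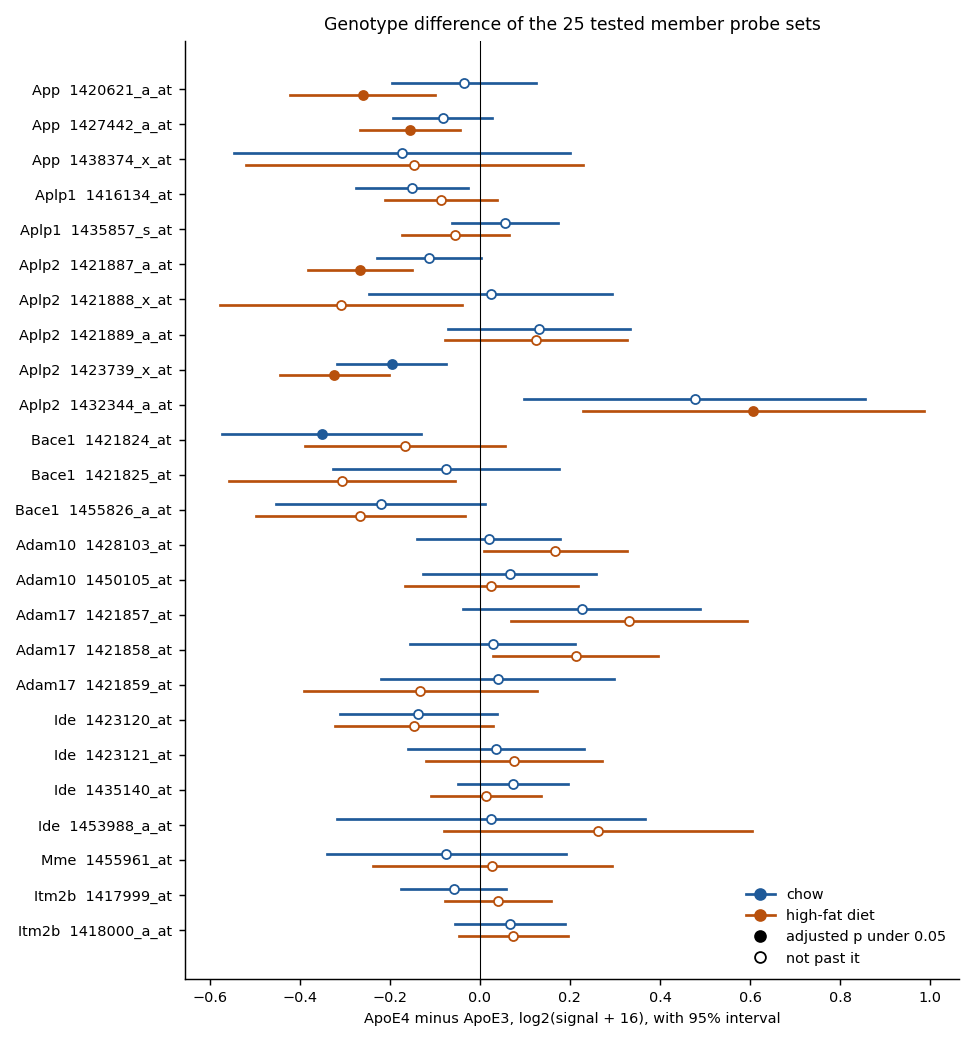
ApoE4 minus ApoE3 in log2(signal + 16) for the 25 tested member probe sets, on chow and on high-fat diet, with 95% intervals. Filled points passed an adjusted p of 0.05. Filled points stand to the left of 0 for App, Aplp2 and Bace1, and to the right only for Aplp2 1432344_a_at, at 0.61 on high-fat diet.

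In the precursor family, both well-detected App probe sets were lower in ApoE4 on high-fat diet. App 1420621_a_at read 3330 to 4971 there (median 3878) and 4287 to 5311 in ApoE3 (median 4736), and 5 of 6 ApoE4 arrays lay below every ApoE3 array. The difference was -0.26 ± 0.078 on the log2 scale (SE, adjusted p = 0.0166 by limma), a 1.20-fold lower signal. App 1427442_a_at read 8225 to 10302 (median 9299) in ApoE4 and 9421 to 10958 (median 10508) in ApoE3, with 3 of 6 below all. It was lower by a 1.11-fold ratio (-0.16 ± 0.054, adjusted p = 0.0342). On chow the groups overlapped, and neither App set passed (-0.04 ± 0.078 and -0.08 ± 0.054, adjusted p = 0.807 and 0.322). Over both diets the differences were -0.15 ± 0.055 and -0.12 ± 0.038 (adjusted p = 0.0371 and 0.016). The third tested App set, the dim 1438374_x_at, read 29.1 to 43.7 in ApoE4 and 25.5 to 46.5 in ApoE3 on high-fat diet and did not pass (-0.15 ± 0.18, adjusted p = 0.58).

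In fits that left out 1 array, an array of the other diet could move the p-value of a single-diet difference but not the difference. Counts out of 24 fits include these. The App calls rested on small margins. That of 1420621_a_at on high-fat diet was lost without ApoE4 high-fat replicate 5 (adjusted p = 0.0534). That of 1427442_a_at on high-fat diet was lost in 7 of 24 fits that left out 1 array, namely ApoE3 high-fat replicates 1, 4, 5 or 6 or ApoE4 high-fat replicates 2, 4 or 5, with an adjusted p of up to 0.107. The average of 1420621_a_at was lost in 11 such fits (up to 0.0755): without ApoE3 chow replicates 1, 2 or 6, ApoE4 chow 1, 3 or 4, ApoE3 high-fat 2 or 6, or ApoE4 high-fat 3, 4 or 5. With the hybridization control signal as a covariate, 1427442_a_at passed neither on high-fat diet (adjusted p = 0.218) nor on average (0.311). The average of 1420621_a_at did not pass there either (0.0584). The high-fat call of 1427442_a_at was also lost without the 4 arrays of lowest hybridization signal (0.0964) and with only the arrays compared (0.0792).

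Aplp2, the most broadly expressed relative of App, had 5 probe sets, and they did not move together. Sets whose names end in _a_at recognise several transcripts of a gene, and those in _x_at hold probes that also resemble other sequences. Aplp2 1423739_x_at was lower in ApoE4 on both diets. On high-fat diet it read 3545 to 4129 in ApoE4 (median 3823) and 4389 to 5137 in ApoE3 (median 4835), so that 6 of 6 ApoE4 arrays lay below every ApoE3 array, as was so for 4.94% of all probe sets. The difference was -0.32 ± 0.059 (adjusted p = 0.000482), a 1.25-fold lower signal. On chow it read 3581 to 4423 (median 3916) against 3964 to 4932 (median 4506), with 4 of 6 below all (-0.20 ± 0.059, adjusted p = 0.0339). The chow call was lost without ApoE3 chow replicates 2, 4, 5 or 6 or ApoE4 chow replicates 1, 3 or 4 (adjusted p up to 0.0912). Aplp2 1421887_a_at was also lower on high-fat diet, at 4090 to 4742 (median 4380) against 4724 to 6026 (median 5205), with 5 of 6 below all (-0.27 ± 0.057, adjusted p = 0.00171). On chow it gave -0.11 ± 0.057 and did not pass (adjusted p = 0.19).

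The set 1432344_a_at of the same gene went the other way. On high-fat diet it read 277 to 429 in ApoE4 (median 355) and 179.9 to 306 in ApoE3 (median 223), with 5 of 6 ApoE4 arrays above every ApoE3 array (0.61 ± 0.18, adjusted p = 0.0183). On chow it read 231 to 479.6 (median 316) and 177 to 391 (median 198), and the difference of 0.48 ± 0.18 did not pass (adjusted p = 0.0921, and 0.0197 without ApoE3 chow replicate 2). Over both diets 1432344_a_at was higher by 0.54 ± 0.13 (adjusted p = 0.00254), while 1421887_a_at and 1423739_x_at were lower by -0.19 ± 0.040 and -0.26 ± 0.042 (adjusted p = 0.000813 and 5.79e-05). The other 2 sets did not pass on any of these comparisons. 1421889_a_at gave 0.13 ± 0.098 on chow and 0.13 ± 0.098 on high-fat diet, and 1421888_x_at 0.02 ± 0.13 and -0.31 ± 0.13 (adjusted p = 0.081 for the last). Without ApoE3 chow replicate 3 or ApoE4 high-fat replicate 1, 1421888_x_at passed on high-fat diet (adjusted p = 0.0199 and 0.0459). Its high-fat difference stayed at -0.31 without the chow array and was -0.37 without the high-fat array.

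**Figure D3:**
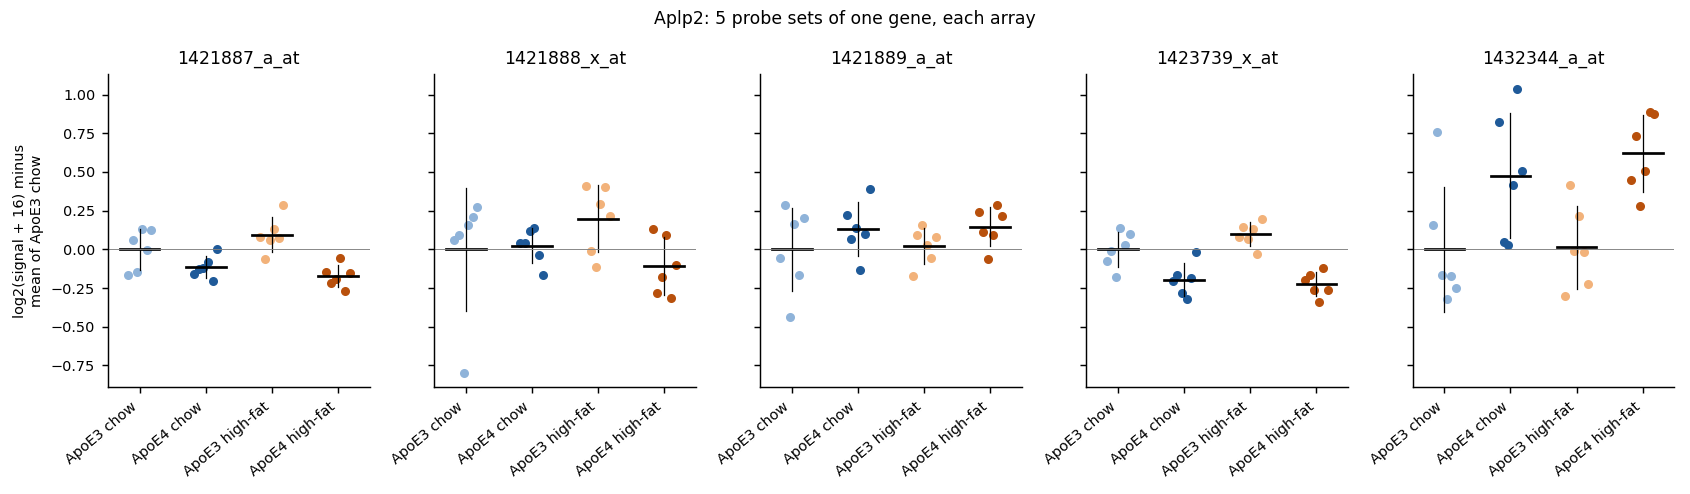
Signal of the 5 Aplp2 probe sets on each array, as log2(signal + 16) minus the mean of the ApoE3 chow arrays for that set. Points are arrays, thick bars are group means and thin bars 1 SD (n = 6). The ApoE4 high-fat mean is the lowest for 1423739_x_at and 1421887_a_at and the highest for 1432344_a_at.

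Whether 2 probe sets of a gene disagreed was tested on their log2 ratio in each array, with the same model, over all 6798 pairs of tested sets of 1 gene on the array. The ratio of Aplp2 1423739_x_at to 1432344_a_at was lower in ApoE4 by -0.93 ± 0.20 on high-fat diet, with 6 of 6 ApoE4 arrays below every ApoE3 array (limma adjusted p = 0.00649). On chow it was lower by -0.67 ± 0.20 (adjusted p = 0.0472). The high-fat call held in 24 of 24 fits that left out 1 array, whereas the chow call was lost in 14 of 24, with an adjusted p of up to 0.0949. Those 14 left out ApoE3 chow replicates 1, 3, 4, 5 or 6, ApoE4 chow replicates 1, 4 or 5, ApoE3 high-fat replicates 3, 4 or 5, or ApoE4 high-fat replicates 1, 4 or 5. Once the mean of the neuron, myelin and astrocyte markers was added to the fit, the high-fat difference was -0.75 and did not pass (adjusted p = 0.161), and the chow difference was -0.58 (adjusted p = 0.124). The ratio of 1421889_a_at to 1423739_x_at differed as well, by 0.45 ± 0.089 on high-fat diet (6 of 6 above all, adjusted p = 0.00415) and by 0.33 ± 0.089 on chow (adjusted p = 0.0342). Its chow call was lost in 6 of 24 fits, without ApoE3 chow replicates 1, 3 or 5 or ApoE4 chow replicates 1, 2 or 3 (adjusted p up to 0.0779), and with the hybridization covariate (0.27, adjusted p = 0.0988). The high-fat calls of these 2 ratios held with that covariate (adjusted p = 0.0475 and 0.022). Of the 28 member pairs, 2 passed on chow, 6 on high-fat diet and 8 on average, and 5 of the 6 on high-fat diet were of Aplp2. Among all pairs 6.68%, 11.2% and 28.8% passed. The share of all pairs whose groups do not overlap was not computed, so the 6 of 6 counts have no background beside them. The pairs of a gene share probe sets, so they are not independent. No pair of App, Bace1, Itm2b, Adam10 or Aplp1 passed on these 3 comparisons.

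Aplp1, the relative of App that is mainly known from neurons, moved less. Aplp1 1416134_at read 981 to 1186 in ApoE4 (median 1050.4) and 1099 to 1347 in ApoE3 (median 1158) on chow, with 4 of 6 ApoE4 arrays below all, and did not pass (-0.15 ± 0.061, adjusted p = 0.10036). On high-fat diet it gave -0.09 ± 0.061 (adjusted p = 0.298), and averaged over the diets -0.12 ± 0.043, which passed (adjusted p = 0.0305). That call was lost without ApoE3 chow replicate 4, ApoE4 chow replicates 1, 3 or 4, or ApoE4 high-fat replicate 5 (adjusted p up to 0.0609). The brighter Aplp1 1435857_s_at showed 0.06 ± 0.058 on chow, -0.05 ± 0.058 on high-fat diet and 0.00 ± 0.041 on average (adjusted p = 0.993 for the last).

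Beta-secretase had calls on chow and on average, all lower in ApoE4, and none of them held after quantile normalization. Bace1 1421824_at read 182 to 238 in ApoE4 on chow (median 187) and 224 to 301 in ApoE3 (median 251), with 5 of 6 ApoE4 arrays below all (-0.35 ± 0.11, adjusted p = 0.0363), a 1.28-fold lower signal. On high-fat diet it read 171 to 252 (median 189.9) against 184 to 269.7 (median 233), and the groups overlapped more (-0.17 ± 0.11, adjusted p = 0.258). Bace1 1455826_a_at gave -0.22 ± 0.11 on chow and -0.27 ± 0.11 on high-fat diet, and 1421825_at -0.08 ± 0.12 and -0.31 ± 0.12, none of which passed (adjusted p = 0.201, 0.0822, 0.719 and 0.063). Averaged over the diets, 1421824_at (-0.26 ± 0.076, adjusted p = 0.00967) and 1455826_a_at (-0.24 ± 0.080, adjusted p = 0.0192) passed. All 3 tested sets lay below 0 on both diets. After quantile normalization 1421824_at gave -0.26 on chow (adjusted p = 0.126) and -0.14 on average (0.15), and 1455826_a_at -0.18 on average (0.0737). These were the only 3 of the 16 member calls that this normalization ended. With the hybridization covariate the same calls had adjusted p of 0.0623, 0.0622 and 0.0542, at differences of -0.36, -0.27 and -0.29. The chow call of 1421824_at was lost in 7 of 24 fits, those without ApoE3 chow replicates 1, 2 or 3 or ApoE4 chow replicates 1, 2, 4 or 6 (adjusted p up to 0.0973). On high-fat diet 1421825_at passed in 4 such fits (without ApoE3 chow replicates 2 or 4, ApoE4 chow 2 or ApoE3 high-fat 5, adjusted p from 0.0378) and 1455826_a_at in 1 (without ApoE4 high-fat replicate 2, adjusted p = 0.018). Without any of those chow arrays the high-fat difference of 1421825_at stayed at -0.31. On average 1421825_at did not pass (-0.19 ± 0.086, adjusted p = 0.0814), but did without ApoE3 chow replicate 4 or ApoE3 high-fat replicate 5 (adjusted p from 0.0332).

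Of the alpha-secretases, Adam10, the main constitutive one in neurons, did not pass in any comparison. Adam10 1428103_at read 2322 to 3406 in ApoE4 and 2593 to 2906 in ApoE3 on chow (0.02 ± 0.077), and 2593 to 3238 against 2342 to 3047 on high-fat diet (0.17 ± 0.077, adjusted p = 0.107, and 0.0441 without ApoE3 high-fat replicate 1). The other set, 1450105_at, gave 0.07 ± 0.094 and 0.02 ± 0.094. Adam17, which also releases tumour necrosis factor, had 1 set that passed. Adam17 1421857_at read 168 to 208 in ApoE4 on high-fat diet (median 189.9) and 112 to 191 in ApoE3 (median 152), with 3 of 6 above all (0.33 ± 0.13, adjusted p = 0.0555). Over both diets it was higher by 0.28 ± 0.09 (adjusted p = 0.0176), a 1.21-fold ratio. The average was 0.15 with the hybridization covariate and 0.15 with the 3' to 5' ratio of Actb, and passed with neither (adjusted p = 0.371 and 0.185). On high-fat diet it passed in 4 of the fits without 1 array (without ApoE3 chow replicates 2 or 3 or ApoE3 high-fat replicates 2 or 3, adjusted p from 0.0208). Its high-fat difference stayed at 0.33 without either chow array. Adam17 1421858_at gave 0.21 ± 0.089 on high-fat diet (adjusted p = 0.0769, and 0.0254 to 0.0363 without ApoE4 high-fat replicate 2 or ApoE3 high-fat replicate 6), and 1421859_at -0.13 ± 0.13 (adjusted p = 0.455). The ratio of 1421857_at to 1421859_at differed between the genotypes on high-fat diet (0.46 ± 0.14, adjusted p = 0.0344). That call was lost in 7 of 24 fits, without ApoE3 high-fat replicates 1, 4 or 5 or ApoE4 high-fat replicates 1, 3, 4 or 5 (adjusted p up to 0.0826), and with the hybridization covariate (adjusted p = 0.126).

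None of the degrading enzymes passed in a genotype comparison. For Ide, insulin-degrading enzyme, 1435140_at read 996 to 1179.8 in ApoE4 and 979 to 1108 in ApoE3 on chow (0.07 ± 0.060, 95% interval -0.05 to 0.20). On high-fat diet it read 1016 to 1149 and 1006 to 1187 (0.01 ± 0.060, interval -0.11 to 0.14). Ide 1423120_at was the set nearest to a call, at -0.14 ± 0.085 on chow, -0.15 ± 0.085 on high-fat diet and -0.14 ± 0.060 on average (adjusted p = 0.0663 for the last). That average passed in 3 fits without 1 array (ApoE3 chow replicate 4 or 5 or ApoE4 chow replicate 6, adjusted p from 0.0187). Its ratio to 1423121_at differed on average (-0.20 ± 0.072, adjusted p = 0.044), a call lost in 15 of 24 fits without 1 array: ApoE3 chow replicates 2, 3, 4 or 6, ApoE4 chow 1, 3 or 5, ApoE3 high-fat 1, 2, 3, 4 or 5, or ApoE4 high-fat 3, 4 or 6 (adjusted p up to 0.0833). Mme 1455961_at read 109 to 144 in ApoE4 and 119 to 147 in ApoE3 on chow (-0.07 ± 0.13, interval -0.34 to 0.19), and 78.7 to 153 against 86.1 to 142 on high-fat diet (0.03 ± 0.13, interval -0.24 to 0.29). The untested Ece1 1455741_a_at read 191 to 314 in ApoE4 and 172 to 440.2 in ApoE3 on chow and 145 to 278 against 99.2 to 318 on high-fat diet, mostly called Absent.

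Itm2b differed little. Itm2b 1417999_at read 9001 to 11186 in ApoE4 and 9212 to 11232 in ApoE3 on chow, and 9284 to 11019 against 9400 to 10489 on high-fat diet, so the groups overlapped on both diets. Its differences were -0.06 ± 0.057 and 0.04 ± 0.057, with 95% intervals of -0.18 to 0.06 and -0.08 to 0.16. Itm2b 1418000_a_at gave 0.07 ± 0.059 on both diets (adjusted p = 0.485 and 0.366). A difference beyond 0.20 on the log2 scale lay outside the interval of either set on either diet.

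The high-fat diet was not followed by a call among the members. In ApoE3, 0 of 25 probe sets passed, against 0.251% of all, and 1 had an unadjusted p under 0.05, App 1420621_a_at (0.17 ± 0.078, adjusted p = 0.38). In ApoE4, 0 of 25 passed, against 0% of all, and 1 had an unadjusted p under 0.05, Aplp1 1416134_at (0.13 ± 0.061, adjusted p = 0.749). Averaged over genotypes 0 passed, against 0.0359% of all, with 2 at an unadjusted p under 0.05 (Aplp1 1416134_at and Ide 1423120_at). The member differences ranged from -0.19 to 0.20 in ApoE3 and from -0.17 to 0.14 in ApoE4. The interaction, the genotype difference on high-fat diet minus that on chow, was called for 0 of 25 and for 0% of all, and 0 had an unadjusted p under 0.05. A call on 1 diet and not on the other therefore does not show that the diets differ. The largest interaction by p was again App 1420621_a_at (-0.23 ± 0.11, adjusted p = 0.532). Between females and males 0 of 25 passed, against 1.01% of all, with 3 at an unadjusted p under 0.05. These were Adam10 1450105_at (0.19 ± 0.066, female minus male, adjusted p = 0.183), Bace1 1455826_a_at (-0.22 ± 0.080, adjusted p = 0.204) and Aplp2 1421887_a_at (0.09 ± 0.040, adjusted p = 0.302).

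Other genes of amyloid processing were read from lists, with the probe set of highest mean signal for each gene, and the calls come from the same fit. Over all 8261 genes read in this way, 4.13% were higher and 5.68% lower on chow, and 10.5% were higher and 16.7% lower on high-fat diet. Of 7 listed gamma-secretase subunits 4 had a probe set named for 1 gene, and all 4 were lower on high-fat diet, with a median of -0.50 against -0.05 over all genes. These were the catalytic subunit Psen2 (-0.57 ± 0.12), Ncstn (-0.70 ± 0.16), Aph1a (-0.30 ± 0.080) and Psenen (-0.43 ± 0.058). On chow 2 of 4 were lower, Psenen (-0.32 ± 0.058) and Aph1a (-0.43 ± 0.080), with a list median of -0.29. Psen2 and Ncstn gave -0.05 ± 0.12 and -0.26 ± 0.16 there.

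Of 12 partners and regulators of the secretases 0 were higher and 3 lower on high-fat diet, with a median of -0.11, a share near that of all genes. They were Pcsk7 (-0.37 ± 0.086), a proprotein convertase, Rhbdf1 (-0.37 ± 0.074), an iRhom that carries Adam17 to the cell surface, and Tspan33 (-0.37 ± 0.095), a tetraspanin that binds Adam10. On chow 1 of 12 was lower, Pcsk7 (-0.30 ± 0.086). The reticulons Rtn3 and Rtn4, which bind Bace1, gave -0.05 ± 0.055 and -0.03 ± 0.062 on high-fat diet.

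Of 10 genes that bind or sort App 3 were higher and 2 lower on high-fat diet, with a median of -0.12. With so few genes these counts are read only beside the shares over all genes. The higher ones were the retromer subunits Vps35 (0.34 ± 0.059) and Vps26a (0.37 ± 0.11), which return membrane proteins from endosomes, and the adaptor Apbb2 (0.27 ± 0.098, named after its value was seen). The lower ones were the sorting receptor Sort1 (-0.25 ± 0.064) and the adaptor Gga2 (-0.19 ± 0.068), which binds Bace1. On chow 2 of 10 were higher, Vps26a (0.35 ± 0.11) and the sorting receptor Sorl1 (0.43 ± 0.13), and 0 were lower.

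Among 9 other amyloid-degrading proteases 1 was lower on high-fat diet, the membrane metalloproteinase Mmp14 (-0.46 ± 0.13), and 0 passed on chow. Of 3 genes of the BRI family and its proteases 0 passed on either diet. Of 5 genes that bind amyloid beta or carry it out, Clu, or clusterin, was lower on high-fat diet (-0.17 ± 0.061), and Lrp2, or megalin, on chow (-0.53 ± 0.17, from mean signals of 32.4 and 51.1). Ttr, which also binds amyloid beta, gave 0.00 ± 0.13 on chow and -0.10 ± 0.13 on high-fat diet. With diet and the interaction, 0 genes of these 6 lists passed.

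**Figure D4:**
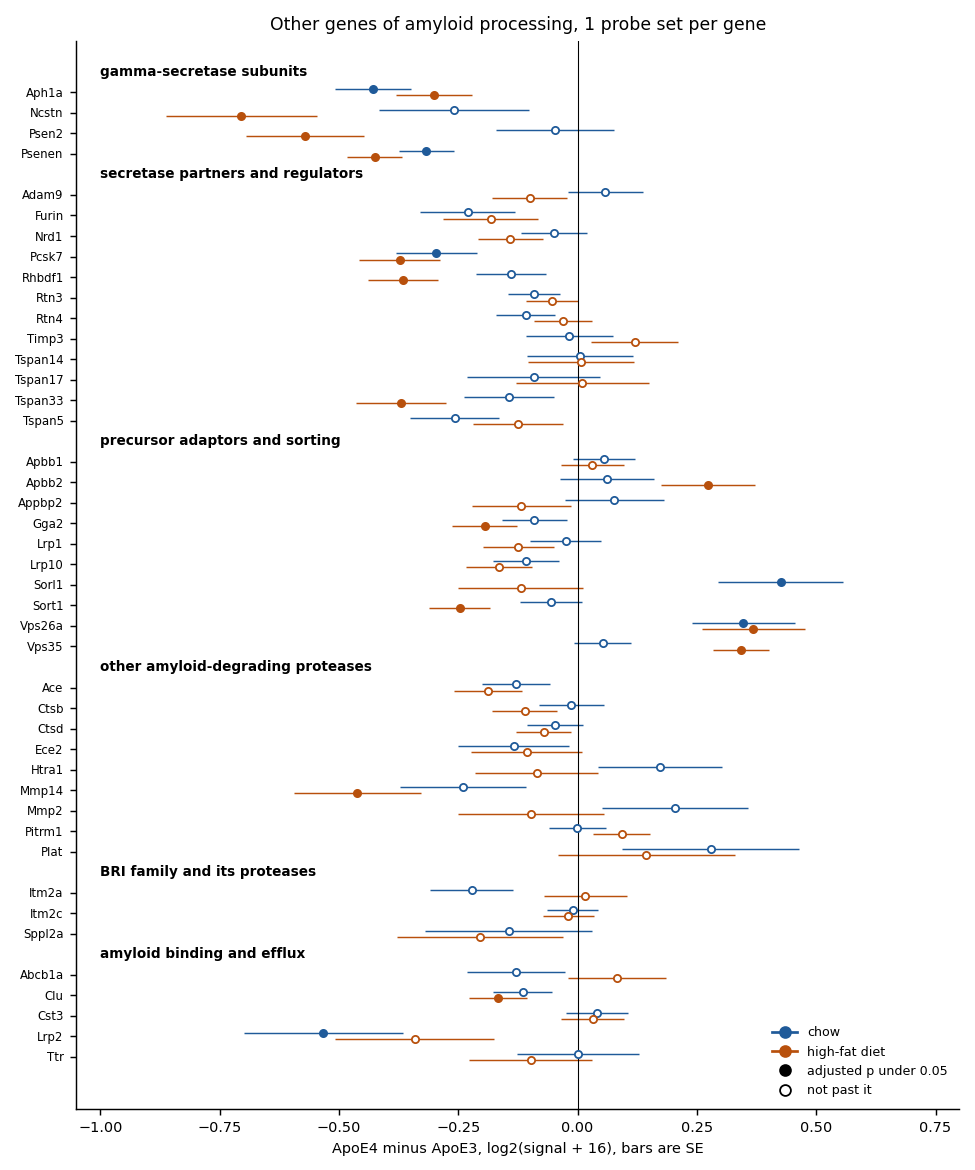
ApoE4 minus ApoE3 in log2(signal + 16) for 43 other genes of amyloid processing, 1 probe set per gene, grouped by list, with bars of 1 SE. Blue is chow, orange is high-fat diet, and filled points passed an adjusted p of 0.05. All 4 gamma-secretase genes lie to the left on high-fat diet, while Vps35, Vps26a and Apbb2 lie to the right.

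Markers of other cells moved with genotype beside these calls. On high-fat diet 0 of 9 neuronal markers were higher and 4 lower in ApoE4, as were 1 and 5 of 7 for oligodendrocytes and myelin, 0 and 1 of 6 for astrocytes, 0 and 5 of 10 for macrophages and microglia and 0 and 5 of 8 for smooth muscle and pericytes. On chow the lower ones were 2, 1, 0, 2 and 4 of these lists, and 0 were higher. Other lists did not follow them. Of 8 markers of fibroblasts and stroma 1 was higher and 0 lower on high-fat diet, with 7 above 0, and of 11 epithelial markers 1 was higher and 2 lower. None of 8 endothelial or 4 ependymal markers passed on that diet, with 0 of each at an unadjusted p under 0.05 by limma. On chow 0 markers of these 4 lists passed, with 1, 1, 2 and 1 at an unadjusted p under 0.05. Over all genes 10.5% were higher and 16.7% lower on high-fat diet. The summed neuronal signal was 1113 to 2117 in ApoE4 and 1838 to 2146 in ApoE3 on high-fat diet, and that of myelin was 2972 to 4410.4 and 4743 to 6066, with no overlap. The summed astrocyte signal was 3456 to 4214 and 3969.5 to 4385. On chow the neuronal sum was 1108 to 1746.6 in ApoE4 and 1434 to 1799.5 in ApoE3, and that of myelin 2343 to 4006 and 3056 to 4226. In ApoE3 both sums were thus higher on high-fat diet than on chow, with no overlap, while in ApoE4 the diets overlapped. With diet in ApoE3, 1 of 9 neuronal and 1 of 7 myelin markers were called higher, against 19 of all 8261 genes. All of these neuronal and myelin markers lay above 0 there. Of the markers on the array, 9 of 13 neuronal, 7 of 9 myelin and 6 of 8 astrocyte ones were Present on 6 or more arrays. For macrophages and microglia it was 10 of 14. In these lists Rbfox3 and Camk2a (neurons), Mag (myelin), Gfap and Slc1a2 (astrocytes) and Itgam and Tmem119 (macrophages and microglia) were Present on 0 of 24 arrays. Since the tissue was measured in bulk, fewer cells of a type and less RNA per cell cannot be told apart.

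With the mean of the neuron, myelin and astrocyte markers as a covariate, 14 of the 16 calls of member probe sets in the 3 genotype comparisons were lost. Aplp2 1423739_x_at kept its calls on high-fat diet (-0.28, adjusted p = 0.0447) and on average (-0.23, adjusted p = 0.0153). The difference shrank for App 1420621_a_at on high-fat diet from -0.26 to -0.15 (adjusted p = 0.408), and for Aplp1 1416134_at from -0.09 to -0.01. It grew for Adam10 1428103_at, from 0.17 to 0.31 (adjusted p = 0.067). For Aplp2 1432344_a_at it was 0.47 in place of 0.61 (adjusted p = 0.279). The call of 1432344_a_at on high-fat diet was also lost with the hybridization covariate (0.35, adjusted p = 0.231) and without the 4 arrays of lowest hybridization signal (0.38, adjusted p = 0.193). Over all probe sets, 828 passed on high-fat diet with the mean of neuron, myelin and astrocyte markers as a covariate and 3678 without it. With the hybridization control signal as a covariate, 10 of the 16 calls were lost. The marker mean on high-fat diet was 7.69 to 8.12 in ApoE4 and 8.18 to 8.37 in ApoE3, with no overlap. On chow the marker mean was 7.62 to 8.13 and 7.95 to 8.23, which overlapped. The hybridization signal on chow was 11.02 to 11.43 and 11.50 to 11.86, with no overlap. On high-fat diet it was 10.70 to 11.67 and 11.47 to 11.70, which overlapped. Where ranges lay apart, the adjustment rests on a slope from within groups, and these fits cannot separate a covariate from genotype. A call can then be lost through a wider error without a smaller difference. Most lost differences shrank with the marker mean, but some grew, as for Bace1 1455826_a_at on average (-0.29 in place of -0.24). With the 3' to 5' ratio of Actb as a covariate, Bace1 1421824_at did not pass on chow (limma adjusted p = 0.109). On average, Aplp1 1416134_at (0.0923), Adam17 1421857_at (0.185) and App 1427442_a_at (0.0548) did not pass with it. The part of these markers, controls and this ratio in the results was otherwise not tested.

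**Figure D5:**
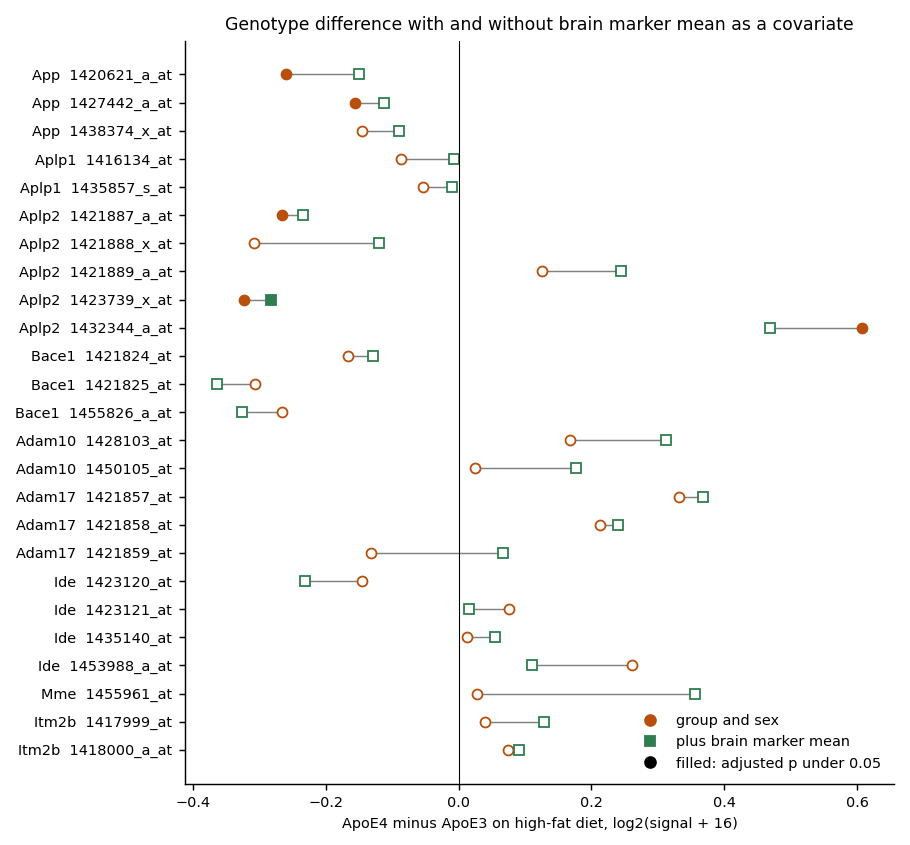
ApoE4 minus ApoE3 on high-fat diet in log2(signal + 16) for the 25 tested member probe sets, from the fit with group and sex (circles) and with the mean of neuron, myelin and astrocyte markers added (squares). Filled symbols passed an adjusted p of 0.05. Of 5 filled circles only Aplp2 1423739_x_at also has a filled square, at -0.28.

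Across arrays, after removing the means of group and sex, probe sets of 1 member gene often varied apart. The 2 bright App sets had a Pearson r of 0.36 over 24 arrays, those of Itm2b 0.20 and those of Aplp1 0.22. Among Aplp2 sets r ranged from -0.39, for 1421887_a_at with 1432344_a_at, to 0.66, for 1421889_a_at with 1423739_x_at. The genes whose residuals were most like those of a member's brightest set were Ociad1 for App (r = 0.73), Gas6 for Aplp2 (0.77), Nbea for Aplp1 (0.65) and Cacna2d2 for Bace1 (0.83). For the alpha-secretases they were Mpdz with Adam10 (0.83) and P4hb with Adam17 (0.85), and for the others Atp6ap2 with Ide (0.79), Dusp14 with Mme (0.76) and Nrp1 with Itm2b (0.83). These are the highest of 8261 genes for each member, the arrays share depth and tissue makeup, and the values are descriptions over 24 arrays.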

How the data were processed

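Expression was measured on 24 arrays in 4 groups of 6, taken from the labels' genotype and diet. The deposited values are linear intensity signals from GCOS 1.4, per the submitters' processing notes. The trimmed mean (2% from each side) was 496.6 to 497.6 on every array. How probes were summarised is not given in the sources used here. Detection calls, also deposited by the authors, set the filter, and the detection p-values beside them were left aside. Signals in both tables were equal in all 544560 cells, within 0.05.

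The 64 control probe sets among 22690 took no part. Signals were taken as log2(signal + 16), and fold changes are on that scale, which understates changes of dim sets. The 13936 probe sets Present on at least 6 of 24 arrays were fitted with limma 3.58.1 in R 4.3.3, with group means and a sex effect over all 24 arrays, and a trended, robust empirical Bayes step. Two-sided p-values took the Benjamini-Hochberg adjustment over all of these within each of 8 comparisons. An adjusted p under 0.05 passed. The fit was tested on simulated data. Array measures were compared by two-sided exact permutation tests, whose smallest p is 0.00216. Precision is limited by how many arrays there are.

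The log2 ratio of 2 probe sets of a gene was fitted in the same way over 6798 pairs, a test chosen after seeing the data. Symbols came from the array's annotation, and those of all 32 member sets were unchanged in RefSeq. All 10 members were named, with up to 4 passing genes of each other list per comparison by smallest p. Apbb2, Rtn3, Rtn4 and Ttr were named outside this rule, and of these only Apbb2 passed. The members and lists were chosen with earlier results of these data known. For each member the genes with the highest residual correlation were taken, of which the first is given. The alternatives changed the pseudocount (1 or 64), the normalization (quantile), the filter (none, or Present on 12 arrays), the sex term, the replicate block, the arrays fitted, their weights, the probe sets per gene or the covariates, or left out each array in turn. A fit lacking the 4 arrays with the weakest hybridization controls was added after seeing the data. Python 3.11.15 with pandas 2.3.3, numpy 2.4.6 and matplotlib 3.10.9 summarised and drew the results.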

Additional observations from a re-analysis of the deposited data

Results flagged for a closer look

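In 4 of 100 groups of 6 arrays (25 probe sets in 4 groups), 1 array stood farther from the rest than Dixon's 95% critical value for 6 samples allows. Chance flags about 5% of groups. Aplp2 1421888_x_at read 202.1 in ApoE3 chow replicate 3 and 379.5 to 442.2 in the other 5. Without that array 1421888_x_at passed on high-fat diet (-0.31, adjusted p = 0.0199 by limma) and on average (-0.22, adjusted p = 0.0158). That chow array is in neither high-fat group, so the high-fat difference stayed the same. What changed there was the spread shared by all groups and the adjusted p. Aplp2 1432344_a_at read 391.2 in ApoE3 chow replicate 2 and 176.8 to 253.4 in the others, and without it the chow difference passed (0.64, adjusted p = 0.0197). Aplp1 1435857_s_at read 4793.5 in ApoE3 high-fat replicate 4 and 3528 to 3936.1 in the others. Adam10 1450105_at read 557.4 in ApoE4 high-fat replicate 6 and 404.2 to 451.1 in the others.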

How the results depend on the processing

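None of the 16 calls of member probe sets changed direction under the alternatives run, though quantile normalization turned the balance of higher and lower calls over all probe sets. Of the 16 member calls, 2 held under every alternative that fitted their probe set, Aplp2 1423739_x_at on high-fat diet and on average. That set was not in the fit with 1 probe set per gene, where the brighter 1421887_a_at stood for Aplp2. In each of 24 fits without 1 array, 10 of the 16 held. In those fits the number of calls was 0 to 2 on chow, 3 to 7 on high-fat diet and 7 to 10 on average, and 0 in the diet, interaction and sex comparisons. The 2 calls on chow became 1 after quantile normalization, 1 with the 3' to 5' ratio of Actb as a covariate and 1 with only the arrays compared. With 1 probe set per gene there were 0 calls on chow, 2 on high-fat diet and 3 on average, in place of 2, 5 and 9, as fewer sets were tested. The covariate of brain markers left 0, 1 and 1. Array weights gave 9 calls on high-fat diet, and the hybridization covariate 4 on average. Leaving out the 4 arrays with the weakest hybridization controls, ApoE4 high-fat replicates 2, 5 and 6 and ApoE4 chow replicate 5, there were 2, 4 and 9 calls. These were not all the same calls. App 1427442_a_at and Aplp2 1432344_a_at were lost on high-fat diet, Aplp1 1416134_at and Adam17 1421857_at on average, and other sets passed. Of the member pairs, 2, 6 and 8 passed on chow, on high-fat diet and on average. These became 1, 1 and 3 with the brain marker mean and 0, 3 and 2 with the hybridization covariate, and the chow count was 1 with a pseudocount of 1. Without 1 array they ranged over 0 to 2, 4 to 7 and 7 to 9. Apart from the fewer sets tested, the cause of these changes was not tested. With the replicate number as a block in place of sex, 2 probe sets passed on chow, 6 on high-fat diet and 9 on average. The numbers share nothing else in the labels, and same-numbered arrays of different groups had a median residual correlation of -0.03 over 36 pairs, with 2 above 0.1. Another 16 results were called only under some alternative.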
